A study of Mus musculus with 14 samples.

Results

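The 9 genes described here encode the calcium sensor calmodulin (Calm2, Calm3) and the protein kinases that it switches on: the 4 subunits of calcium/calmodulin-dependent kinase II, CaMKII (Camk2a, Camk2b, Camk2d, Camk2g), the nuclear kinase CaMKIV (Camk4), and the upstream kinases CaMKK1 and CaMKK2 (Camkk1, Camkk2). They were taken by name from a table of 24100 genes, and each matched 1 row. The table holds RNA sequencing counts from the cerebellum of mice at postnatal day 21 that were wild type (WT) or knockout (KO) for Astn2, which encodes the neuronal membrane protein astrotactin 2. All mice, WT and KO littermates alike, carried a bacTRAP transgene in which the Pcp2 promoter, active in Purkinje cells within the cerebellum, drives ribosomal protein L10a fused to EGFP. In translating ribosome affinity purification (TRAP), antibodies to GFP pull down the tagged ribosomes with the mRNA bound to them; a portion of the same kind of lysate, kept aside before the pull-down, served as input and stands for the whole cerebellum. There were 4 input WT libraries (1 female, 3 male), 3 input KO (2 female, 1 male), 3 TRAP WT (1 female, 2 male) and 4 TRAP KO (2 female, 2 male).

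When calcium enters a neuron, calmodulin binds it and then docks onto its target enzymes. CaMKII assembles into large rings of mixed subunits, stays active after the calcium signal has gone by phosphorylating itself, and is needed for plasticity at synapses, in the cerebellum as at the parallel fibre contacts on Purkinje cells. CaMKK1 and CaMKK2 phosphorylate CaMKI, CaMKIV and, for CaMKK2, the energy sensor AMPK, while CaMKIV acts on transcription factors such as CREB and is a known product of cerebellar granule cells.

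In the build GRCm38.p6 the annotation places Calm2 on chromosome 17 (87433401 to 87446935), Calm3 on chromosome 7 (16915379 to 16924032), Camk2a on chromosome 18 (60925307 to 60988152), Camk2b on chromosome 11 (5969629 to 6066357) and Camk2d on chromosome 3 (126595487 to 126846326). Camk2g lies on chromosome 14 (20734873 to 20794157), Camk4 on chromosome 18 (32934941 to 33195767), Camkk1 on chromosome 11 (73016043 to 73042073) and Camkk2 on chromosome 5 (122718380 to 122779522). Counts cover whole genes, so exons, introns and splice forms cannot be separated. Calm2 and Calm3 encode the same protein; how reads that fit both, or a processed copy elsewhere, were assigned is not given in the sources used here, and their levels are uncertain to that extent.

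Library totals ran from 18799609 to 54229183 counts. All 9 genes were far above detection, with counts between 350 and 224798 in any library, while the floor of 3 counts corresponded to between 0.0444 and 0.204 CPM (counts per 1000000, scaled with TMM factors, which adjust each library for differences in composition). This covers counting error only. Astn2 itself fell from 94.4 ± 6.90 CPM (SD, n = 4) in input WT to 0.885 ± 0.127 (n = 3) in input KO, and from 129.6 ± 14.8 (n = 3) in TRAP WT to 1.52 ± 0.447 (n = 4) in TRAP KO, in the direction of the labels. The sum of 12 Purkinje cell markers was 6866 to 8163 CPM in input and 69021 to 82463 in TRAP, and all 12 were higher in TRAP in both genotypes. TRAP WT replicate 3 stood farthest from its group mean over all genes (root mean square deviation of 0.406 on the log2 scale), followed by TRAP WT replicate 2 (0.303) and TRAP KO replicate 4 (0.249), against 0.115 to 0.168 in the input libraries. Labels do not say which libraries came from separate animals, so p-values measure only the spread between these samples, which may be technical.

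Comparing TRAP with input asks which of these transcripts are held on Purkinje cell ribosomes in excess of their level in the whole cerebellum. In WT, 4 of the 9 genes were higher in TRAP (Calm2, Camk2a, Calm3 and, under scaling for composition only, Camk2b) and 5 were lower (Camk4, Camk2g, Camk2d, Camkk2 and Camkk1), each with adjusted p under 0.05 in edgeR's quasi-likelihood test over 16042 genes. In KO the count was likewise 4 higher and 5 lower. Most genes differ between these fractions: the share of all genes called was 37% higher and 38.5% lower in WT, and 36.3% higher and 39.6% lower in KO, so that 75.5% and 75.9% were called in either direction. TRAP and input values did not overlap for any of the 9 genes in either genotype, against 72.6% of all genes in WT and 78% in KO. With 4 members higher and 5 lower, their median log2 fold change was the value of the least depleted gene. It was -1.20 in WT (Camkk1) and -0.97 in KO (Camkk2), so it does not describe a shift of the 9 genes as a set. The median of all genes tested was -0.09 and -0.11.

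**Figure D1:**
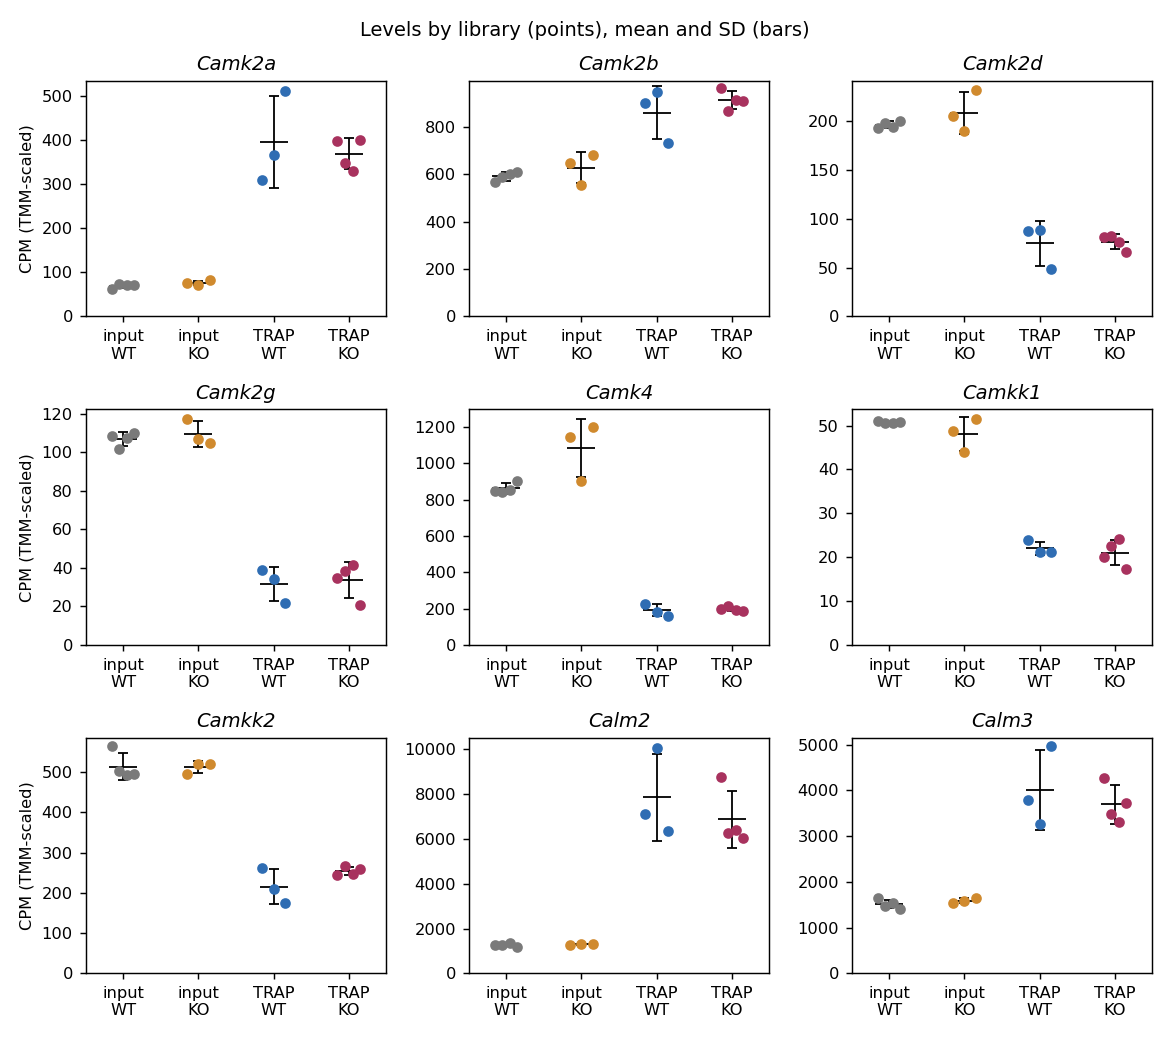
Levels of the 9 genes (vertical axes, TMM-scaled CPM) in each library, by group; points are libraries, and bars give the mean and SD (input WT n = 4, input KO n = 3, TRAP WT n = 3, TRAP KO n = 4). For Camk2a, Camk2b, Calm2 and Calm3 every TRAP library lies above every input library on this scale (Camk2b flips when scaled by library totals), and for the other 5 genes every TRAP library lies below, while WT and KO points overlap within each fraction.

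Calm2 was higher in TRAP in both genotypes. In the 4 input WT libraries it stood at 1265, 1267, 1356 and 1191 CPM, and in the 3 TRAP WT libraries at 7118, 10043 and 6360.2 CPM. Input KO libraries held 1271, 1299.5 and 1322 CPM, and TRAP KO libraries 8763, 6256, 6399 and 6022 CPM. Input values sat within a narrow band, and TRAP values were spread, with the highest in TRAP WT replicate 2 and TRAP KO replicate 1. The log2 fold change was 2.63 ± 0.16 (SE) in WT, or 6.20-fold (edgeR's quasi-likelihood test, adjusted p = 6.34e-09), and 2.42 ± 0.17 in KO, or 5.37-fold (adjusted p = 3.13e-08). Camk2a stood close to it in WT, at 2.52 on the same scale, and the order of the 2 genes turned without TRAP WT replicate 2 (2.33 for Calm2 and 2.54 for Camk2a).

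Calm3, a separate gene for the same calmodulin protein, rose less. Its input WT libraries gave 1641, 1481, 1539 and 1417 CPM, and its TRAP WT libraries 3796, 3264 and 4971 CPM. In KO the values were 1547, 1581 and 1645 CPM in input and 4264, 3483, 3302 and 3733 CPM in TRAP. TRAP WT replicate 3 was the highest of all for Calm3 while it was the lowest of the TRAP WT libraries for Calm2. The log2 fold change of Calm3 was 1.41 ± 0.14 in WT, 2.65-fold (edgeR, adjusted p = 5.16e-07). In KO it was 1.24 ± 0.14, 2.36-fold (adjusted p = 2.88e-06); leaving out TRAP WT replicate 3 lowered the WT log2 value to 1.17.

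Calm2 and Calm3 can be set side by side only per kilobase of the longest annotated transcript (1205 bases for Calm2, 2290 for Calm3). The pair summed to 1717 ± 84.0 CPM per kb in input WT and 8258 ± 1302 in TRAP WT, a ratio of 4.81. In KO the ratio was 4.12, and with library totals the ratios were 2.74 in WT and 2.49 in KO. Calm2 made up 61.4% ± 1.37 of the pair's sum in input WT and 78.1% ± 7.27 in TRAP WT, and 60.8% ± 0.308 and 77.8% ± 1.82 in KO, with Calm3 as the remainder. Every TRAP library had a larger Calm2 share than every input library, from 70.9% in TRAP WT replicate 3 to 85.4% in TRAP WT replicate 2. These shares depend on the length used: with the mean length of each gene's transcripts, Calm3 was ahead of Calm2 in input (52.4% against 47.6% in WT, 52.98% against 47.0% in KO), while Calm2 stayed ahead in TRAP (67.4% against 32.6% in WT).

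**Figure D2:**
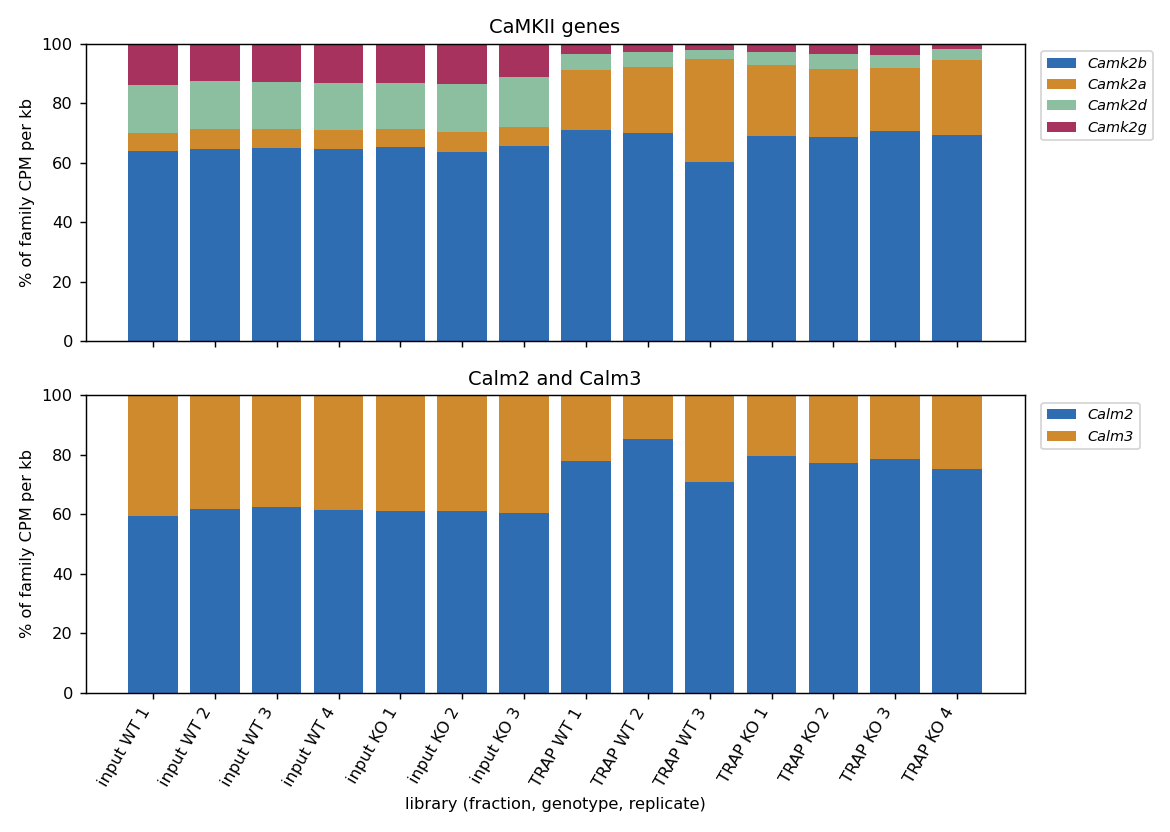
Share of each gene (vertical axis, % of the summed CPM per kb of longest transcript) among the 4 CaMKII genes (top) and between Calm2 and Calm3 (bottom); each bar is 1 library. In TRAP the Camk2a and Calm2 segments are wider than in any input library and the Camk2d, Camk2g and Calm3 segments narrower, and TRAP WT replicate 3 has the largest Camk2a share, 34.9%.

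Among the CaMKII genes, those for the alpha and beta subunits rose in TRAP, beta only where libraries were scaled for composition, and those for delta and gamma fell. Camk2a, the alpha subunit that dominates in forebrain excitatory neurons, was at 63.4, 72.6, 70.7 and 72.4 CPM in input WT and at 309.6, 365.3 and 511.3 CPM in TRAP WT. In KO it was at 75.6, 70.9 and 81.7 CPM in input and at 398.1, 347.4, 330.2 and 399.8 CPM in TRAP. The lowest TRAP library was thus well above the highest input library, and TRAP WT replicate 3 was above every other. TRAP against input gave a log2 fold change of 2.52 ± 0.14 in WT, 5.72-fold (edgeR's quasi-likelihood test, adjusted p = 2.41e-09), and 2.27 ± 0.15 in KO, 4.83-fold (adjusted p = 1.35e-08). Without TRAP WT replicate 3 the WT value was 2.28.

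Camk2b, the beta subunit, which also binds actin, was the CaMKII gene with the highest level and the smallest shift. Input WT libraries gave 567, 589, 602 and 609 CPM, and TRAP WT libraries 899.7, 946 and 732 CPM. In KO the input libraries gave 648, 555 and 681 CPM and the TRAP libraries 963, 868, 911 and 909 CPM. The groups did not overlap, but the gap between the highest input value (681) and the lowest TRAP value (732) was small. Its log2 fold change was 0.55 ± 0.11 in WT, 1.46-fold (adjusted p = 3.87e-04), and 0.55 ± 0.11 in KO, 1.47-fold (adjusted p = 4.40e-04), both in edgeR's test with TMM factors. When libraries were scaled by their totals alone, which moved the all-gene median log2 value by -0.82 (WT) and -0.73 (KO), the direction of Camk2b flipped, to -0.27 (adjusted p = 0.0316) in WT and to -0.18 (adjusted p = 0.132) in KO, whereas the other 8 genes kept their direction and their call.

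Camk2d, the delta subunit found in many tissues, was lower in TRAP. It was at 193, 198, 193 and 199 CPM in input WT against 87.5, 88.3 and 48.2 CPM in TRAP WT. In KO it was at 204, 189 and 231 CPM in input against 81.5, 82.4, 76.4 and 65.6 CPM in TRAP. TRAP WT replicate 3 was the lowest library, followed by TRAP KO replicate 4. The log2 fold change was -1.40 ± 0.18 in WT, 2.64-fold lower (edgeR, adjusted p = 7.72e-06), and -1.42 ± 0.17 in KO, 2.67-fold lower (adjusted p = 4.54e-06).

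Camk2g, the gamma subunit, known for carrying calmodulin to the nucleus in neurons, moved with Camk2d. Input WT libraries held 108, 102, 107 and 109.9 CPM, and TRAP WT libraries 39.0, 34.3 and 21.8 CPM. In KO there were 117, 107 and 105 CPM in input and 34.9, 38.4, 41.7 and 20.5 CPM in TRAP. As for Camk2d, TRAP WT replicate 3 and TRAP KO replicate 4 were the lowest of their groups. Its log2 fold change was -1.78 ± 0.21 in WT, 3.43-fold lower (adjusted p = 3.84e-06, edgeR), and -1.65 ± 0.20 in KO, 3.13-fold lower (adjusted p = 4.91e-06).

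Per kilobase, the 4 CaMKII genes summed to 222 ± 5.71 CPM in input WT and 310.0 ± 16.8 in TRAP WT, a ratio of 1.40, and the ratio in KO was 1.36; scaled by library totals, an alternative added after seeing the data, these ratios flipped to 0.797 and 0.822. Camk2b supplied 64.7% ± 0.415 of the sum in input WT and 67.1% ± 5.99 in TRAP WT, and 64.8% ± 1.11 and 69.5% ± 0.832 in KO, so it was the leading gene in every library. Camk2a went from the smallest share in input, 6.33% ± 0.278 in WT and 6.53% ± 0.209 in KO, to the second largest in TRAP, 25.9% ± 7.88 in WT and 23.3% ± 1.68 in KO. The TRAP WT libraries had Camk2a shares of 20.3%, 22.4% and 34.9%, the last from replicate 3, in which the Camk2b share was 60.2%, below every other library. The Camk2d share was 15.99% ± 0.325 in input WT and 4.33% ± 1.20 in TRAP WT, and 16.04% ± 0.652 and 4.35% ± 0.472 in KO. That of Camk2g was 13.0% ± 0.497 and 2.75% ± 0.721 in WT, and 12.7% ± 1.27 and 2.88% ± 0.834 in KO. With the mean transcript length in place of the longest, Camk2b supplied 57.8% in input WT and 60.6% in TRAP WT, Camk2a supplied 30.95% in TRAP WT, and the ranking of Camk2b before Camk2a before Camk2d before Camk2g in TRAP was the same.

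Camk2b and Camk2d are shown by the 250 bases before the start site used in the RefSeq promoter table, because they are the CaMKII genes with an entry there and went opposite ways between TRAP and input under scaling for composition; with library totals both were lower in TRAP. In each gene that start site lies inside the annotated gene span, so the window is not upstream of the whole gene. RefSeq promoter windows, build GRCm38.p6, were matched for 5 of the 9 members (Calm3, Camk2b, Camk2d, Camkk1 and Camkk2). Capitals mark GC boxes (GGGCGG, the letters bound by Sp1-type factors), read on both strands, so that a match on the other strand appears as its complement. The Camk2b window is chr11:6065749-6065998 on the minus strand and the Camk2d window is chr3:126596701-126596950 on the plus strand, both written 5′ to 3′ along the gene.
Camk2b: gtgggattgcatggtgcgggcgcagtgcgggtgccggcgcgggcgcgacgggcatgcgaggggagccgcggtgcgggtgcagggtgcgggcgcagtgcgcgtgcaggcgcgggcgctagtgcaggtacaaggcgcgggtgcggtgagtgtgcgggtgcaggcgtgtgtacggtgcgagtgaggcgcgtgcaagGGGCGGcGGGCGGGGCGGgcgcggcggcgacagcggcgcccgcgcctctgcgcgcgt
Camk2d: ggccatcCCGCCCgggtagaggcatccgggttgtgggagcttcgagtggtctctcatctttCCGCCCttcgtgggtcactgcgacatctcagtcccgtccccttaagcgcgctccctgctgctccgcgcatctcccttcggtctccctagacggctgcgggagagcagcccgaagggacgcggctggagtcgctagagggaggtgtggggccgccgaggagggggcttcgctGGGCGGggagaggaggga

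Each of these windows held 3 GC boxes, clustered near that start site in Camk2b and spread along the window in Camk2d, and their GC content was 78.4% and 68.4%. A GC box was present in 32.7% of the 32851 promoter windows of the same length. Neither window held the cyclic AMP response element TGACGTCA (1.55% of all windows), its shorter form TGACG, which the full element contains (17.8%), or the TATA box TATAAA (12.4%), on either strand. These matches describe letters in the windows and were not set against binding data.

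The CaMKIV gene Camk4 was the most strongly depleted of the 9. It was at 848, 843, 854 and 905 CPM in input WT and at 226, 183 and 162 CPM in TRAP WT. In KO it was at 1147, 903 and 1202 CPM in input and at 196, 213, 192 and 189.6 CPM in TRAP. The 7 TRAP libraries ran from 162 to 226 CPM, and the input KO libraries ranged more widely than the input WT libraries. TRAP against input gave a log2 fold change of -2.18 ± 0.14 in WT, 4.55-fold lower (edgeR's quasi-likelihood test, adjusted p = 6.46e-09), and -2.43 ± 0.13 in KO, 5.38-fold lower (adjusted p = 2.17e-09).

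The genes for the upstream kinases fell by less. Camkk1 was at 51.0, 50.6, 50.6 and 50.8 CPM in input WT and at 23.8, 21.2 and 21.2 CPM in TRAP WT, and in KO at 48.8, 44.0 and 51.5 CPM in input and at 20.2, 22.6, 24.1 and 17.4 CPM in TRAP. The coefficient of variation of its input WT libraries was 0.317%, the smallest of any member in any group. With 1670 to 2571 counts in these libraries, counting error alone is larger than this spread, so the value is not a trait of the gene. The log2 fold change was -1.20 ± 0.12 in WT, 2.29-fold lower (adjusted p = 5.69e-07, edgeR), and -1.17 ± 0.11 in KO, 2.26-fold lower (adjusted p = 5.12e-07). Camkk2 was at 565, 502, 492 and 495 CPM in input WT and at 263, 209 and 175 CPM in TRAP WT. In KO it was at 496, 521 and 520.2 CPM in input and at 243, 267, 248 and 259 CPM in TRAP. No TRAP library of Camkk2 reached the lowest input value of 492 CPM. TRAP against input gave a log2 fold change of -1.26 ± 0.12 in WT, 2.40-fold lower (adjusted p = 3.42e-07, edgeR), and -0.97 ± 0.11 in KO, 1.96-fold lower (adjusted p = 3.48e-06).

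**Figure D3:**
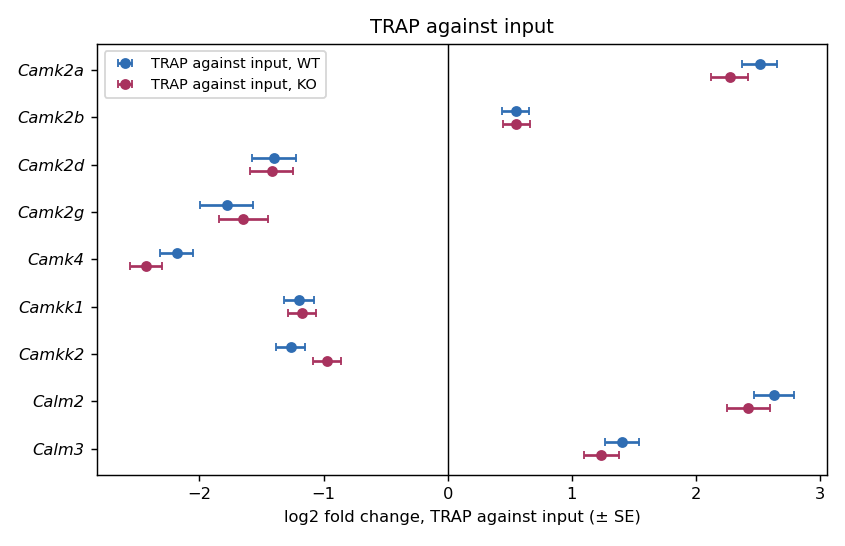
Log2 fold change of TRAP against input (horizontal axis, ± SE from edgeR's quasi-likelihood fit) for each of the 9 genes, WT and KO in separate colours. Calm2 (2.63 in WT) and Camk2a (2.52) lie farthest to the right and Camk4 (-2.18) farthest to the left, and Camk2b (0.55) lies nearest to 0, the one gene whose direction flips when libraries are scaled by their totals.

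Ranked by CPM per kb of the longest transcript, the order in input was Calm2, Calm3, Camk4, Camk2b, Camkk2, Camk2d, Camk2g, Camk2a and Camkk1, in both genotypes. Neighbours in this order did not overlap in their library ranges, apart from Camk2a (14.04 ± 0.871 CPM per kb) and Camkk1 (13.7 ± 0.0433) in input WT. In TRAP, Calm2 and Calm3 were again first, Camk2b came next with 208 ± 27.3 CPM per kb in WT and 221 ± 9.42 in KO, and Camk2a (79.6 ± 20.97 in WT, 74.2 ± 7.13 in KO) rose to stand beside Camk4 (70.0 ± 12.1 in WT, 72.8 ± 3.97 in KO), with ranges that overlapped. In input WT Camk4 was at 317 ± 10.6 CPM per kb. Camkk2 followed with 44.4 ± 9.07 in TRAP WT and 52.3 ± 2.20 in TRAP KO. Camk2d, Camk2g and Camkk1 made up the end of the order, and in TRAP WT each overlapped its neighbour. Parts of this order depend on the length used. Per kb of the mean transcript length, Calm3 (1554) stood above Calm2 (1413) in input WT, and Camkk2 (264.9) and Camk2b (262.8) were nearly level. On that scale Camk2a in TRAP was at 194 in WT and 181 in KO, above Camk4 (109.6 and 114) and Camkk2 (111 and 131).

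Most markers of other cell types were also lower in TRAP. All 10 granule cell markers were lower in TRAP in both genotypes, as were all 10 oligodendrocyte and all 8 microglial markers, 9 of 10 astroglial markers (Hopx was higher) and 6 of 7 molecular layer interneuron markers (Prkcd was higher). Of 8 endothelial markers, 8 were lower in WT and 6 in KO. Of 6 choroid plexus markers, 1 was higher, 1 was lower and 4 did not pass in WT, against 1 higher and 5 lower in KO. The summed granule markers went from 5752 to 6019 CPM in input to 850 to 1706 CPM in TRAP, so that the TRAP mean was 22.2% of the input mean in WT and 23.3% in KO, and none of the 10 was at 0 in any library. On the same footing Camk4 in TRAP was at 22.0% of its input mean in WT and 18.2% in KO. The corresponding figures in WT and KO were 29.7% and 30.9% for Camk2g, 38.1% and 36.7% for Camk2d, 42.0% and 49.6% for Camkk2, and 43.5% and 43.7% for Camkk1. Summed oligodendrocyte markers in TRAP were at 23.95% and 27.4% of input in WT and KO, those of molecular layer interneurons at 37.1% and 48.2%, and those of astroglia at 79.99% and 72.4%. The interneuron sum includes Prkcd (log2 0.41 in WT, 1.04 in KO) and the astroglial sum Hopx (2.63 and 2.46), so neither sum gives the fall of the other markers. The median log2 fold change was -1.80 in WT and -1.62 in KO for interneuron markers, and -1.72 and -1.58 for astroglial markers. TRAP KO replicate 4 (850 CPM) and TRAP WT replicate 3 (958 CPM) had the lowest granule sums, and these 2 libraries also had the lowest Camk2d and Camk2g. The other depleted genes did not share this order. Camk4 and Camkk2 were lowest in TRAP WT replicate 3 and then TRAP WT replicate 2 (183 and 209 CPM), below TRAP KO replicate 4 (189.6 and 259 CPM). Camkk1 was lowest in TRAP KO replicate 4 (17.4 CPM) and then TRAP KO replicate 1 (20.2 CPM), below TRAP WT replicate 3 (21.2 CPM). The part of other cells' RNA in the TRAP levels of the 5 depleted genes was not tested. Between KO and WT, in bulk samples such as these, fewer cells of a type and less RNA per cell cannot be told apart.

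Comparing KO with WT asks whether loss of Astn2 altered these transcripts. In TRAP, 0 of the 9 genes passed at the threshold of 0.05 when edgeR was run on 14145 genes, of which 0.00707% passed, that is Astn2 alone. At an unadjusted p under 0.05 it was 0 of 9, against 1.5% of all genes, and DESeq2 also called 0 of 9. No member's KO libraries were separated from its WT libraries (4.56% of all genes were). The largest difference in TRAP was that of Camkk2, at 254 ± 10.7 CPM in KO (n = 4) and 216 ± 44.1 in WT (n = 3), with a log2 fold change of 0.22 ± 0.16 and an adjusted p of 1.00. Calm2 followed with 6860 ± 1279 CPM in KO and 7841 ± 1945 in WT, a log2 fold change of -0.21 ± 0.22 and an adjusted p of 1.00; the sign turned, to 0.02, without TRAP WT replicate 2. Leaving out 1 library, the value of Camkk2 ran from 0.12 to 0.42. The other 7 genes had log2 fold changes between -0.12 (Calm3) and 0.08 (Camk2b) with standard errors of 0.15 to 0.27. With errors of this size the values do not show that the genotypes were alike.

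In input, 0 of the 9 genes passed in edgeR's test over 15997 genes, of which 0.0188% passed. At an unadjusted p under 0.05 there were 2, Camk4 and Camk2a, against 13.7% of all genes, and 0 of 9 had groups that did not overlap, against 11.4%. Camk4 differed most. Its input KO libraries (1147, 903 and 1202 CPM) averaged 1084 ± 159 and its input WT libraries (848, 843, 854 and 905 CPM) averaged 863 ± 28.7. KO replicates 1 and 3 were above every WT library, and KO replicate 2 lay just below the highest WT library. The log2 fold change was 0.34 ± 0.10, 1.27-fold, which did not pass (edgeR's quasi-likelihood test, adjusted p = 0.221; unadjusted p = 0.00599).

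The call for Camk4 in input rested on the setting. DESeq2's Wald test gave 0.35 (adjusted p = 0.0259), and edgeR without input KO replicate 2 gave 0.43 (adjusted p = 0.0407); over all 14 alternatives the adjusted p ran from 0.0259 to 1.00 and the log2 value from 0.27 to 0.43. Those 2 settings called more genes of every kind: DESeq2 called 105 higher and 189 lower, and edgeR without that library 54 higher and 104 lower, against 1 and 2. Input KO replicate 2 had a choroid plexus marker sum of 1180 CPM, against 24.6 and 22.8 in the other input KO libraries and 17.1 to 412 in input WT; the part of this in its Camk4 level was not tested. Summed granule markers overlapped, at 5752 to 6019 CPM in input KO and 5833 to 5938 in input WT. The sum joins markers that moved in opposite directions. In edgeR's test 0 of the 10 passed, and 3 were at an unadjusted p under 0.05. These were Neurod1 (log2 0.14), Cbln3 (-0.24) and Slc17a7 (-0.24). By sex, the female KO libraries gave 1147 and 903 CPM for Camk4 and the female WT library 848, and the male KO library gave 1202 against 843 to 905 in the 3 male WT libraries. In TRAP, Camk4 was at 198 ± 10.8 CPM in KO and 190.1 ± 32.8 in WT, a log2 fold change of 0.03 ± 0.15.

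Camk2a in input was at 76.1 ± 5.43 CPM in KO and 69.8 ± 4.33 in WT, a log2 fold change of 0.16 ± 0.06 which did not pass (edgeR's quasi-likelihood test, adjusted p = 0.290; unadjusted p = 0.0215). The lowest KO library, 70.9 CPM, lay among the WT libraries. Camk2b and Camk2d each had a log2 fold change of 0.10 ± 0.07, with their 3 KO libraries on both sides of the WT range. Camk2g (-0.03 ± 0.07), Camkk1 (-0.09 ± 0.06), Camkk2 (-0.07 ± 0.06), Calm2 (0.0054 ± 0.0601) and Calm3 (0.0134 ± 0.0590) had unadjusted p-values from 0.217 to 0.930 in the same test. Errors here were smaller than in TRAP, 0.06 to 0.10 on the log2 scale.

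**Figure D4:**
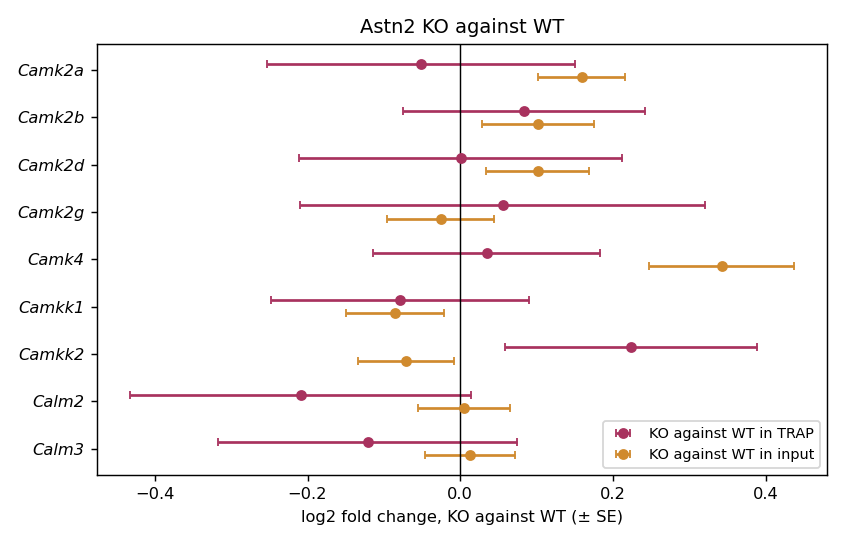
Log2 fold change of KO against WT (horizontal axis, ± SE from edgeR's quasi-likelihood fit) for each of the 9 genes, in TRAP and in input. Camk4 in input (0.34 ± 0.10) lies farthest from 0, and standard errors are wider in TRAP than in input.

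Whether the genotype difference itself depended on the fraction was tested as an interaction in all 14 libraries. In edgeR's quasi-likelihood test 0 of the 9 genes passed, with 0 of 16042 genes overall (0%), 0 of 9 at an unadjusted p under 0.05 against 2.68% of all genes, and 1 gene overall but no member with DESeq2. The largest interaction values were 0.29 ± 0.16 for Camkk2 (unadjusted p = 0.0919), -0.24 ± 0.18 for Camk4 and -0.24 ± 0.19 for Camk2a, each (adjusted p = 1.00). Leaving out 1 library, these values ran from 0.18 to 0.41 for Camkk2 and from -0.36 to -0.090 for Camk4. For Camk2a they ran from -0.36 to -0.017, the last without TRAP WT replicate 3. An effect of genotype in 1 fraction and not in the other was therefore not shown for any of the 9.

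The wider calmodulin pathway was followed in 53 further genes, of which 52 were tested. In WT, 13 of the 52 were higher in TRAP, 27 were lower and 12 did not pass; in KO the counts were 12, 30 and 10. Their median log2 fold change was -0.71 in WT and -0.72 in KO. Against 37% higher and 38.5% lower over all genes in WT, these genes were more often lower, as a description only. These counts are those with TMM factors. They were not taken with library totals, which moved the all-gene median log2 value by -0.82 in WT and -0.73 in KO.

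Among the other calmodulin-like and kinase genes, 2 of 9 were higher and 6 lower in WT. The 2 small proteins that bind and inhibit CaMKII went opposite ways. Camk2n2 rose from 186 ± 6.75 CPM in input WT to 1237 ± 203 in TRAP WT (log2 2.73), while Camk2n1 fell from 248 ± 23.2 to 55.7 ± 37.0 (log2 -2.18). TRAP WT replicate 3 held 13.3 CPM of Camk2n1 against 72.2 and 81.7 in the other TRAP WT libraries. Camk1, the CaMKI gene itself, rose from 33.0 ± 2.51 to 58.2 ± 4.61 CPM (log2 0.83), though this is about the size of the shift that library totals bring. Camk1g, a CaMKI isoform, fell from 11.4 ± 0.880 to 4.21 ± 2.29 CPM (log2 -1.52).

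Of the 4 small IQ-motif proteins that bind calmodulin, 2 were higher and 1 lower. Pcp4, a Purkinje cell protein that speeds the exchange of calcium on calmodulin, rose from 797 ± 98.4 CPM to 22085 ± 4841 (log2 4.80), more than any other gene of the pathway list. Pcp4l1, its relative, rose from 40.5 ± 8.39 to 398 ± 89.1 CPM (log2 3.31). Gap43, a growth cone protein, fell from 270.5 ± 21.2 to 49.7 ± 24.3 CPM (log2 -2.48).

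A list of 9 genes held phosphatases, which reverse kinase action and include the calmodulin-dependent phosphatase calcineurin, and calcineurin regulators. In WT, 4 of these 9 were higher and 3 lower. Rcan1, a calcineurin regulator, rose from 34.1 ± 1.36 to 148 ± 18.1 CPM (log2 2.13), and the catalytic subunit gene Ppp3cb from 289 ± 2.51 to 676 ± 110.3 CPM (log2 1.24). Rcan2 fell from 121 ± 3.14 to 51.3 ± 15.4 CPM (log2 -1.25) and Rcan3 from 171 ± 18.5 to 93.5 ± 8.06 CPM (log2 -0.87), so the 3 calcineurin regulators were divided.

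Of 16 substrate and target genes, 3 were higher, 8 lower and 5 did not pass in WT. The CREB family was divided as well: Creb1, the CREB gene, fell from 69.7 ± 1.40 to 20.5 ± 3.53 CPM (log2 -1.76), and Crem, its relative, rose from 9.41 ± 0.559 to 40.4 ± 8.83 CPM (log2 2.11). Mef2c, a transcription factor gene, rose from 24.9 ± 3.41 to 56.4 ± 7.41 CPM (log2 1.20), and Crtc3, a CREB coactivator, fell from 36.3 ± 2.21 to 12.6 ± 0.622 CPM (log2 -1.53).

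Of 14 other calmodulin-dependent enzymes, 2 were higher, 9 lower and 3 did not pass in WT. Itpka, an inositol trisphosphate kinase, rose from 81.9 ± 4.46 to 1370.1 ± 175 CPM (log2 4.09), and Dapk2, a calmodulin-regulated death-associated kinase, from 1.63 ± 0.126 to 4.95 ± 1.51 CPM (log2 1.62). Adcy1, the calmodulin-stimulated adenylyl cyclase, fell from 2059 ± 111 to 410.4 ± 126 CPM (log2 -2.32), and the phosphodiesterase gene Pde1a from 1.82 ± 0.136 to 0.298 ± 0.0643 CPM (log2 -2.59). The genes named so far from these 5 lists were picked among those that passed in both genotypes, so their passing in KO was set by that choice. Their direction was the same in KO. Of the other genes in the lists, Ppp3cc and Hdac5 passed in WT only, and Ppm1e, Calml4, Pde1c and Camta2 in KO only. In the interaction 0 of the 52 tested genes passed, so a difference between genotypes was not shown for these. Hdac5 was at 185, 130 and 477 CPM in TRAP WT, the last from replicate 3, against 134 to 155 in input WT. Calml4 was near the floor in TRAP, at no more than 0.504 CPM in WT and 0.234 in KO.

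**Figure D5:**
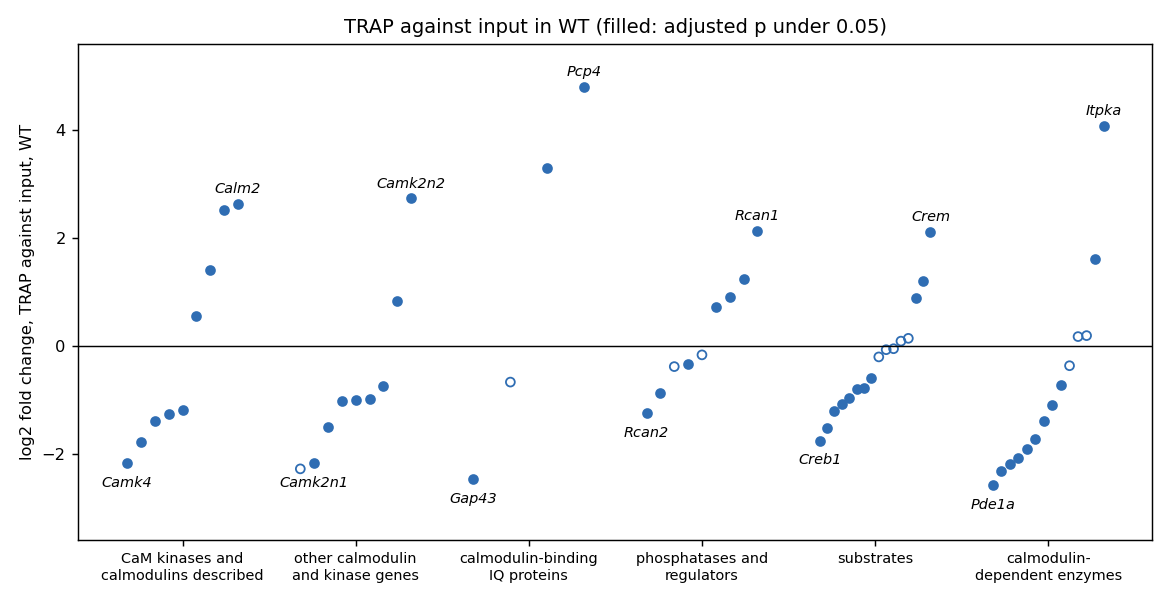
Log2 fold change of TRAP against input in WT (vertical axis) for the 9 genes and for the 52 tested genes of the 5 pathway lists; filled points had an adjusted p under 0.05 by edgeR, open points did not, and the highest and lowest called gene of each list is named. Every list holds called genes on both sides of 0, from Pcp4 (4.80) to Pde1a (-2.59).

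Between genotypes, 0 of these genes passed in TRAP (50 tested) or in input (52 tested) by edgeR's test. In input 10 of 52 were at an unadjusted p under 0.05, against 13.7% of all genes, and 11 had KO libraries above every WT library while 0 had them below, against 7.78% and 3.66% of all genes. In TRAP 0 of 50 were at an unadjusted p under 0.05, against 1.5% of all genes. There 0 had groups that did not overlap, against 4.56%.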

How the data were processed

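The authors deposited 1 table of raw counts per gene (Entrez identifiers, whole numbers) for 14 libraries; per the submitters' processing notes, Salmon 0.8.2 and the build mm10 were named, without their role. The aligner, the counting rule and the strand setting are not given in the sources used here, so genes that overlap on opposite strands are uncertain. Groups, sex and replicate numbers came from the labels. Symbols came from RefSeq, GRCm38.p6 (24045 of 24100 rows matched), and transcript lengths from GENCODE M21. Totals ranged from 18799609 to 54229183 counts. Every pair of libraries within a group differed by more than sampling noise (chi-square over degrees of freedom 8.63 to 267), and each counted as 1 replicate.

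Differences were tested with edgeR 4.0.16 in R 4.3.3 (glmQLFit and glmQLFTest, two-sided, TMM factors, filterByExpr by group, sex as a covariate, Benjamini-Hochberg adjustment over all genes tested, threshold 0.05). TRAP against input and the interaction used all 14 libraries; genotype was tested in the 7 libraries of each fraction. Standard errors were taken from each log2 value and its F statistic. The script was tested on simulated data with less spread than these libraries and no difference in composition between fractions. That test checks the code only. Alternatives were DESeq2 1.42.0, its size factors, library totals, no filter on low counts, no sex covariate, a replicate block, 1 fit for all libraries, mean transcript length and each library left out. All 9 members are named, with the 2 highest and 2 lowest genes of each pathway list among those that passed in both genotypes. The members and lists were chosen with earlier results of these data known. Promoter windows of 250 bases came from RefSeq and were searched for 4 motifs on both strands. 1 gene of the pathway list is not reported here.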

Additional observations from a re-analysis of the deposited data

Results flagged for a closer look

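Within the groups of 4 libraries, 28 values (log2(CPM + 1) of the members and their family shares) were checked for a library far from the other 3, by the gap to its nearest neighbour over the group's range, against the critical value of Dixon's ratio. Chance passes about 1 in 20 of such groups, and 2 of 28 passed. Camkk2 was high in input WT replicate 1 (ratio 0.856), at 565 CPM against 492 to 502 in the other input WT libraries. Calm2 was high in TRAP KO replicate 1 (0.838), at 8763 CPM against 6022 to 6399 in the other TRAP KO libraries.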

How the results depend on the processing

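By edgeR, the members higher and lower in TRAP numbered 4 and 5 in each genotype under every alternative but library totals, which gave 3 and 6 in WT and 3 and 5 in KO and turned Camk2b to -0.27 and -0.18; over all genes the calls were then 3135 higher and 9801 lower in WT and 3132 and 9670 in KO, against 5937 and 6181, and 5817 and 6359. Genotype counts were 0 under every alternative, except 1 in input (Camk4) with DESeq2's Wald test, and 0 to 1 with each library left out; DESeq2 called 105 and 189 genes there against 1 and 2. The replicate block gave 4, 5 and 0, 0, 0 as before. For TRAP against input and the interaction it joined same-numbered TRAP and input libraries of 1 genotype. For KO against WT it joined same-numbered WT and KO libraries, which are different mice and of unlike sex in replicate 2. Same-numbered TRAP and input libraries deviated together in 4 of 6 pairs (r over 0.1, with WT 0.292, 0.243 and 0.0988, and KO 0.225, 0.224 and -0.124). All 3 WT and 2 of 3 KO pairs correlated best with their own number. The labels do not state a pairing, and the main test treated the libraries as unpaired. Genotype log2 values near 0 changed sign, the cause was not tested. Under the replicate block Camkk1 in TRAP was 0.011, Camk2g in input 0.026 and Calm2 in input -0.021. With DESeq2 size factors and DESeq2, Camk2d in TRAP was -0.0016 and -0.0016. With library totals, Calm2 and Calm3 in input were -0.0081 and -6.1e-05; with all 14 libraries in 1 fit Calm2 was -0.00020; without sex Camk2g was 0.0069. Without TRAP WT replicate 3 and TRAP KO replicate 4 together, chosen after seeing the data, TRAP values were 0.089 (Camk2a), -0.0089 (Camk2b), -0.14 (Camk2d), -0.051 (Camk4) and 0.024 (Calm3). Leaving out 1 library, TRAP ranges were -0.24 to 0.14 (Camk2a), -0.012 to 0.17 (Camk2b), -0.20 to 0.22 (Camk2d), -0.26 to 0.24 (Camk2g), -0.038 to 0.17 (Camk4), -0.22 to 0.014 (Camkk1), -0.38 to 0.023 (Calm2) and -0.24 to 0.072 (Calm3); input ranges were -0.069 to 0.043 (Camk2g), -0.16 to 0.022 (Camkk2), -0.0015 to 0.027 (Calm2) and -0.074 to 0.11 (Calm3). With mean transcript length, most family shares moved by more than their SD. Each of the 9 genes had at least 350 counts in every library.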

Other observations

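Of all genes tested, those whose centred log2(CPM + 1) over the 14 libraries lay nearest to that of Calm2, which had the highest log2 fold change in WT with all libraries, were Mrps6 (root mean square difference 0.0825), Fdx2 (0.0829) and Mrpl34 (0.0905). Nearest to Camk4, which had the lowest, were Prex2 (0.115), Utrn (0.122) and Sema5a (0.132). These are likenesses over libraries that share the same 2 fractions, given as values.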
